A study of Mus musculus with 6 samples.

Results

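The genes described here encode the proteasome. They are the 45 of 19465 measured genes whose symbol begins with Psma, Psmb, Psmc, Psmd, Psme or Psmg, with Psmb8 and Psmb9 left out. By their known roles, 7 encode the alpha ring of the 20S core, 6 its beta ring, 6 the ATPase ring and 10 the non-ATPase part of the 19S cap. A further 3 encode chaperones of cap assembly (Psmd5, Psmd9, Psmd10), 4 chaperones of core assembly (Psmg1 to Psmg4) and 5 activators or an activator copy (Psme1, Psme2, Psme2b, Psme3, Psme4). Psmb10 is the inducible form of a catalytic beta subunit, Psma8 and Psmb11 are forms known from testis and thymus, and Psmc3ip encodes a recombination protein that only shares the prefix. Psmb1 and Psmd11 were not analysed here.

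Transcripts were counted in formalin-fixed, paraffin-embedded coronal sections of the brain of male C57BL/6J mice with Visium, in which probe pairs for each gene are captured on spots that each lie under several cells. There were 2 sections at P21, 2 from adults of 12 to 15 weeks and 2 from aged mice of 28 months, with no treatment or genetic change in any group. Version 1 slides, on which the tissue itself was laid, served for P21 and adults. Probes of the aged sections reached version 2 slides through the CytAssist instrument, and the authors describe an enhanced probe design for them. Slide version, probe design and age therefore cannot be told apart in any aged vs. adult value below. Total UMIs, the counts of distinct captured molecules, ranged from 42422997 to 106783660 per section over 20336 spots, and the P21 sections differed 2.12-fold in depth. The labels call the sections of an age biological replicates, and each age has only 2. A lower level in a spot can come from fewer cells of a type or from less RNA per cell, which cannot be told apart.

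The proteasome degrades proteins that carry a chain of ubiquitin. The cap recognises and unfolds the substrate, its ATPase ring threads it into the core, and beta subunits inside the core cut it: Psmb5 carries the chymotrypsin-like, Psmb6 the caspase-like and Psmb7 the trypsin-like site. Activators can take the place of the cap. Psme1 and Psme2 together form the PA28 ring, which opens the core for peptides and is known for its induction by interferon, Psme3 forms a nuclear ring of its own, and Psme4 encodes PA200. Most subunit genes can be raised together by the transcription factor Nfe2l1, which binds antioxidant response elements in their promoters. Neurons depend on the proteasome for the turnover of synaptic proteins.

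Of the 45 genes, 38 have a promoter in the RefSeq table for GRCm38.p6, taken as 250 bases before to 50 after a start, and the core of the antioxidant response element, TGACNNNGC on either strand, was found in 6 of them. These stretches are shown because they hold the letters through which Nfe2l1 is known to act. They run 5' to 3' on the strand of the gene, with the motif in capitals.
Psmb5: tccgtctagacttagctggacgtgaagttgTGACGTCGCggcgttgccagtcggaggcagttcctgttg
Psmb6: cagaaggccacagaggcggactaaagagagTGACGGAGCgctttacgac
Psmc6: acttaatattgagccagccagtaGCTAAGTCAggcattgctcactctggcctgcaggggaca
Psmd9: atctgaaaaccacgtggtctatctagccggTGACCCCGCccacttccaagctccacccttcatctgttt
Psmd12: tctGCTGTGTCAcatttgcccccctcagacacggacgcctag
Psme4: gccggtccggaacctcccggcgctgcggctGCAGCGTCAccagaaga
The stretches lie at chr14:54618004-54618072 for Psmb5 on the minus strand and, on the plus strand, at chr11:70525318-70525366 for Psmb6, chr14:45329574-45329635 for Psmc6, chr5:123228129-123228197 for Psmd9, chr11:107479278-107479319 for Psmd12 and chr11:30771738-30771784 for Psme4. The motif begins 47 bases before the start in Psmb5 and 9 bases before it in Psmb6, and 227 and 247 bases before it in Psmc6 and Psmd12. The share of 15.8% compares with 14.0% of 27025 genes with a promoter. The letters CCAAT were found in 14 of the 38 genes (36.8%, against 41.1% of all) and GGGCGG in 21 of the 38 (55.3%, against 38.2% of all). A match is a description of the letters only.

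Over whole sections the levels of most proteasome genes moved little between P21 and adults, and more in the aged sections. Values are given as CPM, the usual unit that divides the UMIs of a gene by the total of the section, after scaling with the trimmed mean of M values (TMM). Since each gene has its own probes, levels are compared between samples of 1 gene and not between genes. Between aged and adult sections the probes of 1 gene may differ as well. The 42 genes that passed the filter on low values had section levels of 11.1 to 367 CPM from 482 to 37773 UMIs, and their coefficient of variation over the 6 sections ran from 2.57% for Psma4 to 26% for Psme1, with a median of 9.93%. The others were Psma8 with 32 to 102 UMIs a section, Psmb11 with 4 to 56 and Psmc3ip with 131 to 381, and they were not tested. The summed level of the 29 core and cap subunit genes was 4375 ± 98.3 CPM over whole sections (SD, n = 6), with a lowest value of 4270 and a highest of 4536.

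P21 vs. adult addressed what changes as the juvenile brain matures, on slides of 1 version. Whole sections also differed in their share of anatomical zones, which are described below. The hypothalamus held 749 of 3598 and 647 of 3314 spots at P21 and 375 of 2917 and 449 of 3259 in adults. It held 635 of 3679 and 884 of 3569 in aged sections. The hippocampus held 324 and 291 spots at P21 and 350 and 420 in adults. The part of zone shares in whole-section values was not tested. Psme2, a PA28 subunit, and Psme3 had the largest falls at P21. Psme2 stood at 11.1 and 11.6 CPM at P21 and at 14.9 and 15.1 CPM in adults. Psme3 stood at 73.1 and 64.1 CPM at P21 and at 85.4 and 87.7 CPM in adults. In both genes the P21 sections lay below both adult sections. The log2 fold change was -0.40 for Psme2 (SE 0.0922, adjusted p = 0.00681) and -0.33 for Psme3 (SE 0.0745, adjusted p = 0.00616, edgeR's quasi-likelihood test, 11153 genes). Lower at P21 were also Psmd14, which encodes the deubiquitinase of the cap, with 87.9 and 77.7 CPM against 96.6 and 105 CPM in adults (log2 fold change -0.28, adjusted p = 0.0167), the ATPase gene Psmc5 (-0.25) and the chaperone gene Psmd10 (-0.26). The only gene called higher at P21 was Psmb2 of the beta ring, with 160 and 178 CPM against 143 and 147 CPM (log2 fold change 0.22, SE 0.0708, adjusted p = 0.0365). Its aged sections, at 174 and 162 CPM, were also called higher than the adult ones (0.21), a call lost without either adult section or without aged section 1.

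In all, 1 of the 42 genes was called higher and 5 were called lower at P21, where 13.3% and 17.1% of all genes tested were, and no proteasome gene passed a fold of 1.5, which 5.12% of all genes did. No gene of the alpha ring was called. The median log2 fold change was -0.03 for the proteasome genes and -0.02 for all genes. Among the 36 genes without a call were Psmd8 (0.19) and Psmb7 (0.18), with adjusted p of 0.0611 and 0.0575, and the 2 other catalytic genes, Psmb5 (-0.16, adjusted p = 0.164) and Psmb6 (-0.10, adjusted p = 0.335). For 41 of the 42 genes the log2 fold change with 2 SE on each side stayed inside a fold of 1.5, Psme2 being the exception. The calls depend on single sections: the 5 lower calls became 3 without P21 section 1, 1 without P21 section 2, 4 without adult section 1 and 2 without adult section 2, and Psmb2 was lost without any of these 4. Psme2 lost its call without P21 section 1 (-0.37) and Psme3 without P21 section 2 (-0.25). Without aged section 1 there were 3 higher and 10 lower genes, and without aged section 2 there were 3 and 8. Without the aged sections, an alternative chosen after seeing the data, 3 genes were called higher (Psmb2, Psmb7, Psmd8) and 8 lower. The 7 genes of the oligodendrocyte list were all called higher at P21, with a summed level of 24975 to 26088 CPM against 12357 to 12575 CPM in adults, and the neuron list stood at 8810 to 8856 against 9789 to 9798 CPM, with 2 of its 8 genes called higher and 1 lower. None of their genes was at 0, and their part in these values was not tested.

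**Figure D1:**
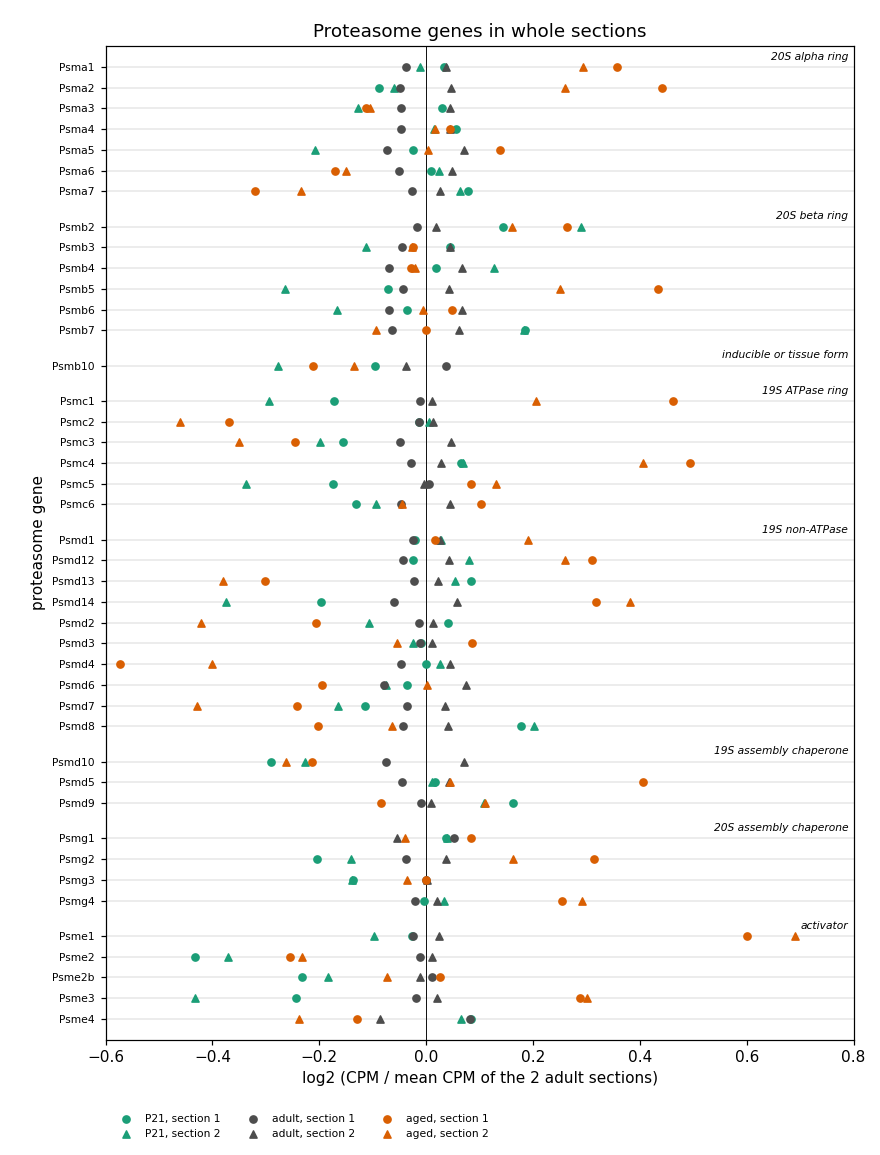
Each point is the log2 ratio of a section's CPM to the mean of the 2 adult sections (x axis) for a proteasome gene (y axis, 42 tested genes grouped by role), with colour for age and shape for the section. Aged sections spread furthest from 0, from -0.48 for the mean log2 fold change of Psmd4 to 0.65 for that of Psme1, and P21 sections of Psme2 and Psme3 lie left of the adult ones.

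In the aged sections the genes of the same particle stood in both directions. Psme1, the other PA28 subunit, had 61.4 and 65.3 CPM in the aged sections against 39.8 and 41.1 CPM in adults. The aged values lay above both adult values (log2 fold change 0.65, SE 0.0664, adjusted p = 2.2e-05), and Psme1 was the only proteasome gene past a fold of 1.5, which 8.99% of all genes were. Psmc4, an ATPase gene, had 159 and 150 CPM against 111 and 115 CPM (0.45, adjusted p = 0.000163). The alpha ring genes Psma2 (0.35) and Psma1 (0.33) were higher as well. Psmb5, the chymotrypsin-like subunit, had 169 and 148 CPM against 121 and 129 CPM (log2 fold change 0.34, SE 0.0838, adjusted p = 0.0047), whereas Psmb6 (0.02) and Psmb7 (-0.05) had adjusted p of 0.822 and 0.586.

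Of the genes that were lower in the aged sections, Psmd4, a ubiquitin receptor of the cap, had 155 and 175 CPM against 224 and 238 CPM in adults (log2 fold change -0.48, SE 0.0717, adjusted p = 0.000207). Psmc2, another ATPase gene, had 173 and 163 CPM against 222 and 226 CPM (-0.41, adjusted p = 0.000228). Psmd13 followed with 84.8 and 80.4 CPM against 103 and 106 CPM (-0.34, adjusted p = 0.00103). In all 3 genes both aged sections lay below both adult sections.

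The count was 12 of 42 genes higher and 10 lower in the aged sections, where 17.3% and 37.3% of the 11315 genes tested were. By role, the non-ATPase genes of the cap had 2 higher and 4 lower of 10, the ATPase genes 2 and 2 of 6, the alpha ring 2 and 2 of 7, the beta ring 2 and none of 6, the core chaperones 2 and none of 4 and the activators 2 and 1 of 5. The median log2 fold change was 0.02 for the proteasome genes and -0.10 for all genes. With plain CPM in place of TMM these medians were 0.12 and 0.00, the proteasome counts 15 higher and 6 lower, and those of all genes 2864 and 2636 in place of 1959 and 4223. Psme3, the nuclear activator, was lower at P21 than in adults and higher in the aged sections, at 106 and 107 CPM (0.29, adjusted p = 0.00574, a call lost without adult section 1, 0.26), while Psme2 was called lower at both ages. The aged call of Psme2 (-0.24, adjusted p = 0.0392) was lost with plain CPM (-0.13), with DESeq2 (-0.22) and without any section but aged section 2 (-0.27 to -0.23). Psmd14 was also called lower at P21 and higher in the aged sections (0.35), and Psmd10 was also called lower at both ages (-0.24 in the aged sections). Psmb10 (-0.17, adjusted p = 0.0682) and Psme4 (-0.18, adjusted p = 0.06) were not called in the aged sections. All 7 oligodendrocyte genes were called lower in the aged sections, with a sum of 7245 to 7604 CPM against 12357 to 12575 CPM in adults. The neuron list had 8749 to 8757 against 9789 to 9798 CPM, with 2 of its 8 genes called higher and 3 lower. Their part in the aged values was not tested.

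Anatomical zones were rebuilt by clustering spots on genes other than the proteasome and pathway genes and named from marker genes: fiber tracts (FT), striatum (STR), hypothalamus (HY), thalamus (TH), cortex (CTX) and hippocampus (HP). Counts were summed per zone and section, and each zone was compared with the mean of the other 5 over the 36 sums. Proteasome transcripts were lowest in the FT. Of the 42 genes, 35 were called lower there and 1 higher, where 43.9% and 28.9% of 11338 genes were. All 7 alpha ring genes, 5 of 6 beta ring genes, all 6 ATPase genes and all 10 non-ATPase genes of the cap were among the lower ones, and 25 of the 42 genes were below the other zones in each of the 6 sections, where 38.4% of all genes were. The summed level of the 29 core and cap genes was 3832 ± 238 CPM in the FT (SD, n = 6), from 3491 to 4089. It was the lowest of the 6 zones in 5 of 6 sections. At P21 the FT was near the STR, with 4089 and 4030 CPM against 4082 and 4040 CPM.

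The lowest genes of the FT were Psme2 (log2 fold change -0.66, SE 0.116, a call lost after thinning to equal depth), Psme3 (-0.60, SE 0.0563) and the cap chaperone gene Psmd5 (-0.42, SE 0.0601). Psme3 had a lowest value of 43.5, a mean of 58.2 and a highest value of 66.2 CPM in the FT against means of 95.7, 94.1 and 95.8 CPM in the CTX, HP and TH. The FT was the lowest zone for Psme3 in all 6 sections. Psmb5 was low there as well, at 101 ± 10.4 CPM (SD, n = 6; log2 fold change -0.40, adjusted p = 5.9e-06). The 3 highest genes of the FT were Psme2b (0.30, adjusted p = 0.00992), Psmg4 (0.06) and Psme1 (0.05), of which only the first was called. The 8 genes of the neuron list were all called lower in the FT and the 7 of the oligodendrocyte list all higher, with summed levels of 3147 to 6373 and 39255 to 96793 CPM. Their part in the proteasome values was not tested.

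The summed level of the 29 genes in the FT was 94.4% and 93.9% of the mean of the other zones at P21, against 89.1% and 87.9% for the adult sections and 77.0% and 77.0% for the aged ones. The 3 ages did not overlap, and the difference between ages in this share was not tested. Both sides of the share moved: scaled over all zones, the FT had 3800 and 3962 CPM in adults and 3621 and 3491 CPM in aged sections. In the HP, TH and HY both aged sections lay above both adult ones, and in the CTX and STR they overlapped. Scaled within each zone, the median aged vs. adult log2 fold change of the 42 genes was -0.01 in the FT. It was 0.09 to 0.16 in the other zones. Without the aged sections 22 genes were called lower in the FT, all of them among the 35, and without aged section 1 there were 21. The neuron list in the FT had a sum of 5579 to 5914 CPM at P21, 6155 to 6408 in adults and 3260 to 3263 in the aged sections, and its part in the gap was not tested.

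In the other zones the proteasome genes stood closer to the mean. In the TH 22 were called higher and 4 lower, where 31.8% and 30.6% of all genes were, led by Psmg3 of core assembly (0.43), Psmc1 of the ATPase ring (0.43) and Psmd8 (0.39), apart from the activators. The TH had the highest summed level in 5 of 6 sections, at 4644 ± 213 CPM. In the TH the neuron list had 6 of 8 genes called higher and 2 lower, all 4 endothelial genes were higher, and their part in the proteasome values was not tested. In the HP 16 were higher and 5 lower (29.3% and 28.7% of all genes), with Psmb5 at 0.36, and in the CTX 14 and 2 (32.9% and 27.5%). In the HY 13 were higher and 4 lower (25.8% and 29.0%), and in the STR 2 and 12 (21.7% and 22.5%). These counts lean on the scaling: with plain CPM they became 15 higher and 7 lower for the TH, 27 and 2 for the HY, 4 and 7 for the STR, 6 and 6 for the CTX and 7 and 6 for the HP, and the summed level was highest in the HY (4707 CPM), whereas the FT kept 33 lower genes. The shares of all genes called between zones with plain CPM are not given here, so these counts are not set against other genes. Without the aged sections the HP had 5 higher genes.

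Psmb10, the inducible trypsin-like subunit, had its own pattern among the 6 zones, highest in the CTX in 5 of 6 sections with 51.8 ± 4.38 CPM against 36 to 41.1 CPM in the other zones (log2 fold change 0.45, SE 0.0576, adjusted p = 1.2e-07). The level was not confined to the CTX, since CA3, a part of the HP scaled separately, had a mean of 53.0 CPM. Psmg4 was lower in the CTX (-0.31) and TH (-0.23) and higher in the STR (0.27) and HP (0.24).

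**Figure D2:**
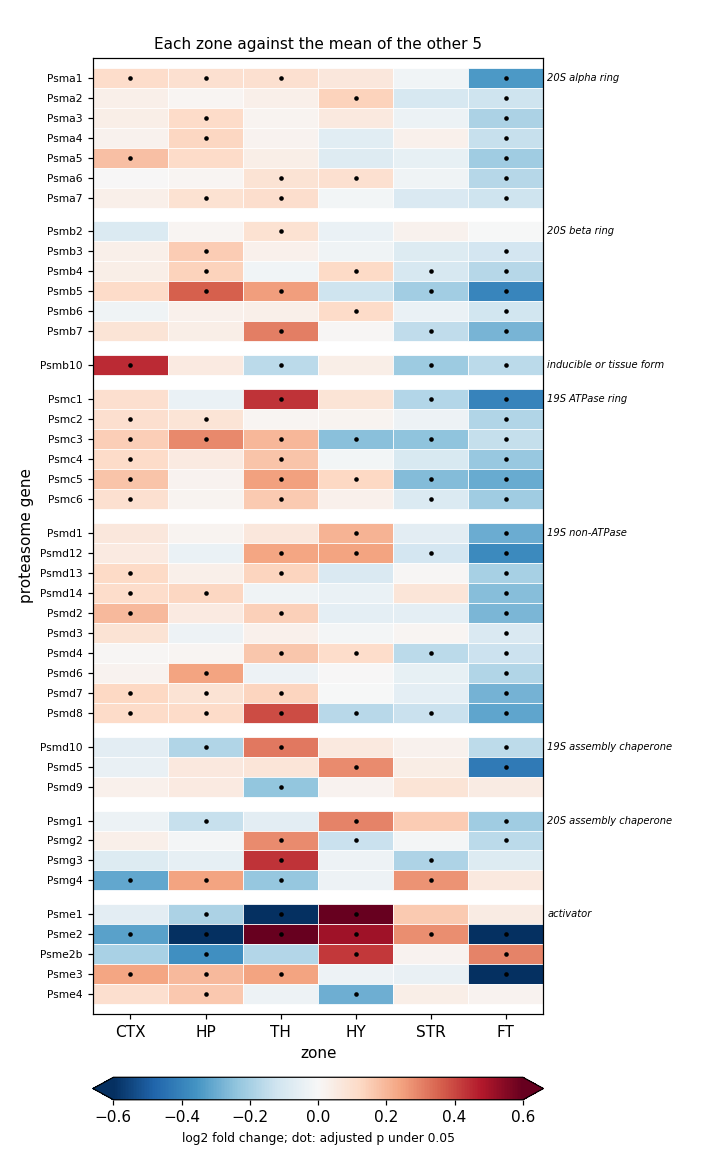
Colour gives the log2 fold change of each zone (x axis) against the mean of the other 5 for 42 proteasome genes (y axis), clipped at 0.6 in either direction, and dots mark adjusted p under 0.05. The FT column is blue for 35 called genes, and the activators at the bottom hold the strongest colours, with Psme1 at 0.91 in the HY and -0.86 in the TH.

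The largest differences between zones were those of the PA28 partners Psme1 and Psme2, which had different orders of zones. Psme1 was highest in the HY and lowest in the TH in all 6 sections. In the HY it had 66.4 and 65.3 CPM at P21, 54.0 and 65.6 CPM in adults and 112 and 101 CPM in the aged sections. In the TH the values were 27.0, 21.1, 22.8, 24.6, 33.4 and 36 CPM in the same order. No TH value reached any HY value (log2 fold change against the other zones 0.91 in the HY and -0.86 in the TH, SE 0.0669 and 0.0772, adjusted p = 2.3e-12 and 8.1e-11). Psme2 was highest in the TH in 5 of 6 sections, with 15.7 and 14.6 CPM at P21, 24.4 and 22.4 CPM in adults and 23.9 and 25.0 CPM in the aged sections. Its log2 fold change was 0.87 in the TH (SE 0.0911, adjusted p = 2e-09), 0.51 in the HY and -0.68 in the HP. The log2 ratio of Psme1 to Psme2 averaged 0.39 in the TH and 1.81 to 2.41 in the other zones (n = 6), and in each of the 6 sections it was lower in the TH than in any other zone. Psme1 (chr14:55578123-55581529) and Psme2 (chr14:55587441-55591113) lie on the same chromosome in GENCODE vM21 on GRCm38, on opposite strands. Across the 36 sums, each section centred, their log2 levels correlated at -0.08, given as a description since the sums share sections.

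Psme2b (chr11:48945354-48946190) is a copy of Psme2 that is nearly identical in sequence, and counts of these 2 genes are uncertain where probes could bind both. It followed another pattern than Psme2, with 0.42 in the HY, 0.30 in the FT and -0.37 in the HP. The FT call of Psme2b was lost without the aged sections, without aged section 2 and after thinning. Psme4, the PA200 gene, was lowest in the HY in all 6 sections, at 63.7 ± 3.50 CPM against means of 74.1 to 83.3 CPM elsewhere (log2 fold change -0.29, adjusted p = 7e-06). The ventricular system, meninges with large vessels and the reticular thalamus were not tested. In the first 2, Psme1 had means of 78.4 and 71.3 plain CPM, near the 83.1 plain CPM of the HY. The summed core and cap genes had 3722 and 3965 plain CPM there against 3867 in the FT. In the reticular thalamus Psme1 had a mean of 29.5 plain CPM, near the 26.5 of the TH. Psme2 had 14.6 plain CPM there against 20.3 in the TH.

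**Figure D3:**
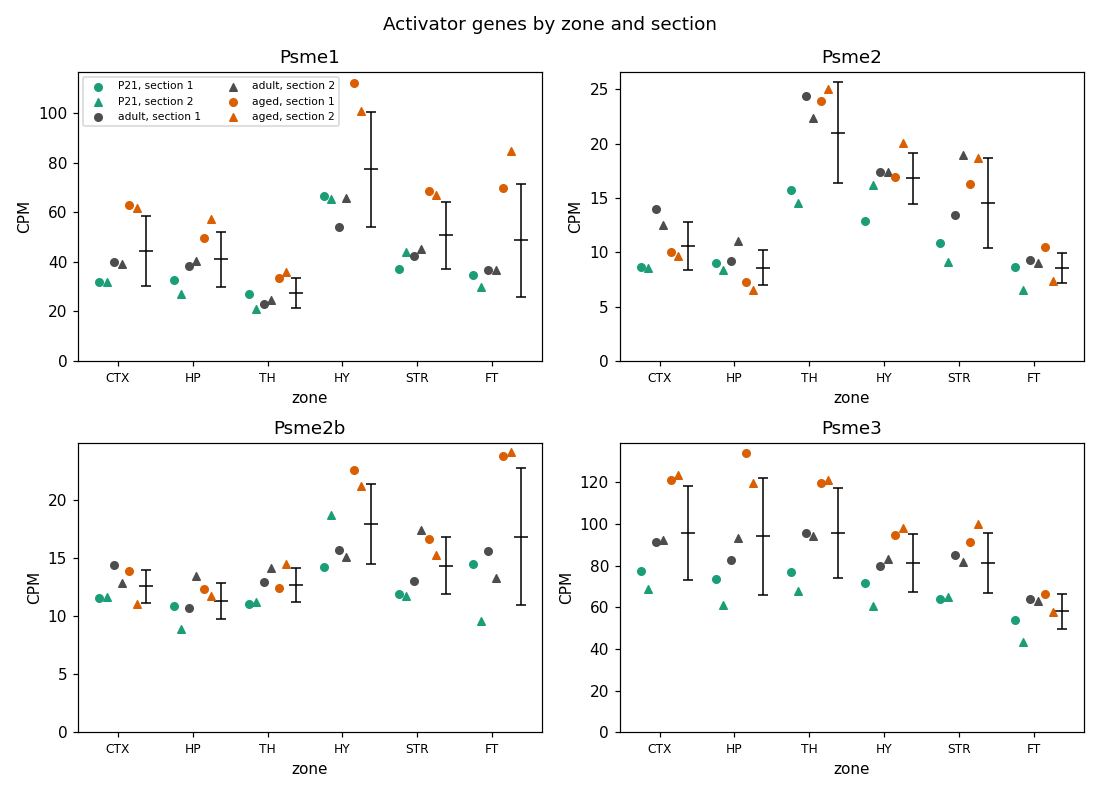
CPM (y axes, from 0) of the activator genes Psme1, Psme2, Psme2b and Psme3 in each zone (x axes), 1 point per section, with the mean and SD of the 6 sections as a bar. Psme1 peaks in the HY (mean 77.3 CPM) where Psme2 peaks in the TH (mean 21.0 CPM), and Psme3 is lowest in the FT (mean 58.2 CPM).

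As a description of how members go together, the log2 level of each gene over the 36 sums was correlated with the summed core and cap genes other than itself. Of 42 genes, 30 had a coefficient over 0.5, the highest being Psmb7 (0.92), Psmd7 (0.92) and Psme3 (0.91), and 4 had one below 0: Psme2b (-0.53), Psmg4 (-0.45), Psme1 (-0.34) and Psmd9 (-0.21). The share of all genes with a coefficient over 0.5 was not computed, so the 30 are not shown to be more than other genes would give. The sum itself correlated at 0.93 with the neuron list and at -0.78 with the oligodendrocyte list. With the neuron list Psmb7, Psmd7 and Psme3 correlated at 0.88, 0.92 and 0.96. The 36 sums share 6 sections and their depth.

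Within the hippocampus the cell layers CA1-2, CA3 and the dentate gyrus (DG) were set against the matrix between them, with 93 to 158 layer spots and 110 to 277 matrix spots a section. Proteasome genes were higher in the layers: 31 of 42 were called higher and 2 lower, where 31.3% and 28.8% of 11119 genes were, with a median log2 fold change of 0.23 against 0.04 for all genes. The layers were above the matrix in each of the 6 sections for 27 genes, where 25.8% of all genes were. Psmb5 had a log2 fold change of 0.44 (SE 0.059, adjusted p = 3.1e-07), Psmd9 of 0.43, Psmd6 of 0.42 and Psmb4 of 0.39. The 2 lower genes were Psme1 (-0.32, adjusted p = 0.0219) and Psme2b (-0.56, adjusted p = 0.00747), and the call of Psme1 was lost without either aged section. Without both aged sections 16 genes were called higher, all of them among the 31, and 14 of the 40 that then passed the filter were after thinning to equal depth. With plain CPM there were 21.

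CA3 held the most. The summed level of the 29 core and cap genes was 5027 ± 278 CPM in CA3, 4602 ± 234 in CA1-2, 4193 ± 130 in the DG and 3805 ± 51.6 in the matrix (SD, n = 6). CA3 was the highest and the matrix the lowest of the 4 in all 6 sections, and CA3 exceeded the matrix 1.21-fold to 1.40-fold. By gene, 27 of 42 had their highest mean in CA3. The share of all genes with their highest mean in CA3 was not computed, so this count is not shown to be more than other genes would give. Psmb5 had means of 212 CPM in CA3, 165 in CA1-2, 127 in the DG and 120 in the matrix. Psmb10 had its highest mean in CA3 (53.0 CPM) and its lowest in the DG (26.4 CPM). The neuron list had 13265 to 16539 CPM in CA3 and 6280 to 8292 CPM in CA1-2 and the DG, which overlapped the 6312 to 8025 CPM of the matrix. In the layers 6 of its 8 genes were called higher than in the matrix and 1 lower, while all 7 oligodendrocyte, 6 astrocyte and 6 microglia genes were called lower. Their part in the proteasome values was not tested.

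**Figure D4:**
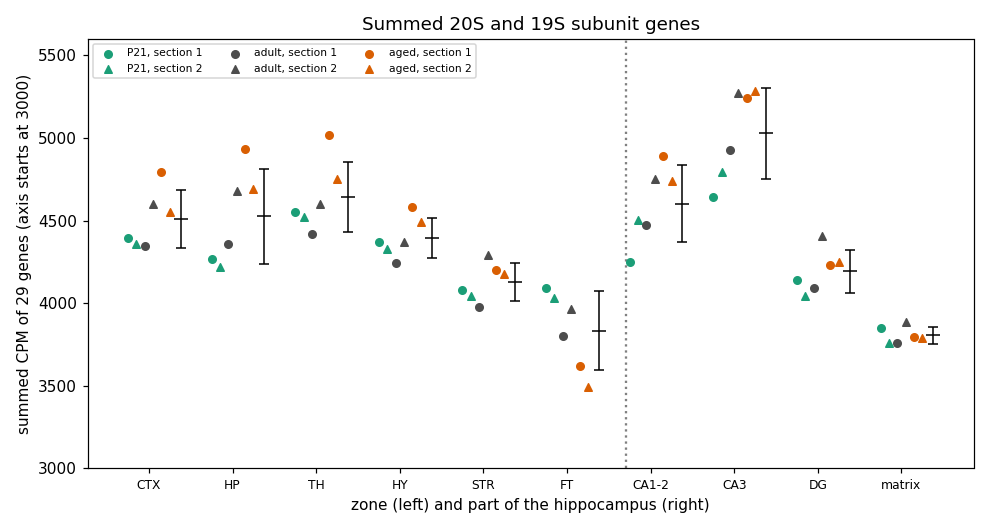
Summed CPM of the 29 core and cap genes (y axis, starting at 3000) in the 6 zones and in the 4 parts of the hippocampus (x axis), 1 point per section, with the mean and SD of the 6 sections as a bar. CA3 is the highest part of the hippocampus in every section, and the aged sections are the lowest in the FT.

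By zone, P21 vs. adult called few proteasome genes: 6 of 42 in the CTX (19.9% of all genes), 4 in the TH (18.1%), 5 in the FT (26.2%) and none in the HP, HY and STR, where 12.9%, 6.42% and 7.32% of all genes were called by edgeR. In these 3 zones 8, 5 and 6 genes had an unadjusted p under 0.05, and DESeq2 called none either. Psme2 was the only gene past a fold of 1.5, lower at P21 in the CTX (8.30 and 8.22 against 13.5 and 12.1 CPM, log2 fold change -0.64, SE 0.132, adjusted p = 0.00503) and in the TH (15.1 and 14.0 against 23.6 and 21.6 CPM, -0.63, SE 0.122, adjusted p = 0.00611). The CPM by zone and age were scaled within each zone, and so differ a little from those scaled over all zones. The P21 sections lay below the adult ones in both zones. The share of all genes past the fold of 1.5 there is not given here. The CTX call was lost without P21 section 1 and the TH call without either P21 section or adult section 1. No proteasome gene had a P21 effect that differed between zones in the test of the zone-by-age terms by edgeR, which 12.6% of all genes passed. The smallest adjusted p of the 42, of which 6 had an unadjusted p under 0.05, were those of Psmb2 (0.0786), Psmg4 (0.0901) and Psme1 (0.0929), with unadjusted p of 0.0133, 0.0166 and 0.0174.

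In aged vs. adult, 33 of the 42 genes were called in at least 1 zone, and 78.6% of the 10680 genes tested in all 6 zones were as well. In the order CTX, HP, TH, HY, STR and FT, 13, 13, 13, 12, 11 and 7 genes were higher, where 20.7%, 15.1%, 18.3%, 13.6%, 15.9% and 25.0% of all genes were. Lower were 6, 5, 3, 2, 6 and 12 in the same order, where 22.3%, 14.7%, 18.4%, 15.8%, 15.2% and 30.3% of all genes were. Summed over zones, these 69 higher and 34 lower calls became 34 and 20 without adult section 1 and 46 and 13 without adult section 2. Psma1, Psmc4 and Psme1 were called higher in all 6 zones and Psmc2 and Psmd4 lower in all 6, where 4.63% and 3.47% of all genes were. Past a fold of 1.5 were Psme1 in the FT (1.11), HY (0.84), STR (0.67) and CTX (0.66), Psme2b in the FT (0.77), Psmb5 in the HP (0.64) and Psmc4 in the HY (0.63) and STR (0.60). In the FT Psme1 had 71.7 and 87.9 CPM in the aged sections against 37.1 and 36.9 CPM in adults (SE 0.119, adjusted p = 1.4e-07), and Psme2b 24.5 and 25.0 against 15.7 and 13.3 CPM. In the HP Psmb5 had 223 and 202 CPM against 129 and 144 CPM (SE 0.0958, adjusted p = 0.000517). Aged and adult sections did not overlap in these 3. The shares of all genes past the fold of 1.5 within zones are not given here. The make-up of the HP differed as well. CA3 held 4112979 of 7988845 and 3690227 of 10465922 HP UMIs in the aged sections, against 1298341 of 6175912 and 1777338 of 6986349 in adults. The matrix held 1591715 and 1660646 against 2310901 and 2418590. Psmb5 was higher in CA3 than in the matrix, and the part of this shift in the HP values was not tested.

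The aged effect differed between zones for 24 of 42 genes in the test of the zone-by-age terms (edgeR, adjusted p under 0.05), a share of 57.1% that is near the 52.3% of all genes. Over all 42 genes, called or not, the aged effect was lowest in the FT for 24, against 32.2% of the 10680 genes tested in every zone. These 24 are not the same set as the 24 called genes, of which Psmb5 was lowest in the STR. Psmb7 had a log2 fold change of -0.29 in the FT, with 178 and 174 CPM against 204 and 227 CPM, and of -0.08 to 0.20 in the other zones (adjusted p of the zone-by-age terms 5.5e-06). Psmd5 ranged from -0.19 in the FT to 0.42 in the STR (2.21e-05) and Psmd8 from -0.30 in the FT to 0.18 in the HP (6.12e-05). Psmb5 ranged from 0.14 in the STR to 0.64 in the HP, Psme3 from 0.00 in the FT to 0.54 in the HP. The 24 genes became 9 without adult section 1, 10 without adult section 2, 7 after thinning to equal depth and 18 with plain CPM. In the FT of the aged sections, 7 of 8 neuron genes were called lower, and 5 of 6 microglia genes and 5 of 6 astrocyte genes higher. Of 8 interferon genes only 4 passed the filter, which a gene could pass through the aged sections alone, and all 4 were called higher. Their list summed to 108 to 152 CPM in the aged FT, 52.4 to 58.1 in adults and 48.4 to 125 at P21. Over whole aged sections 1 of 4 tested interferon genes was called higher. The microglia list had 600 to 676 CPM in the adult FT and 1880 to 1933 CPM in the aged FT. Their part in the proteasome values was not tested.

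**Figure D5:**
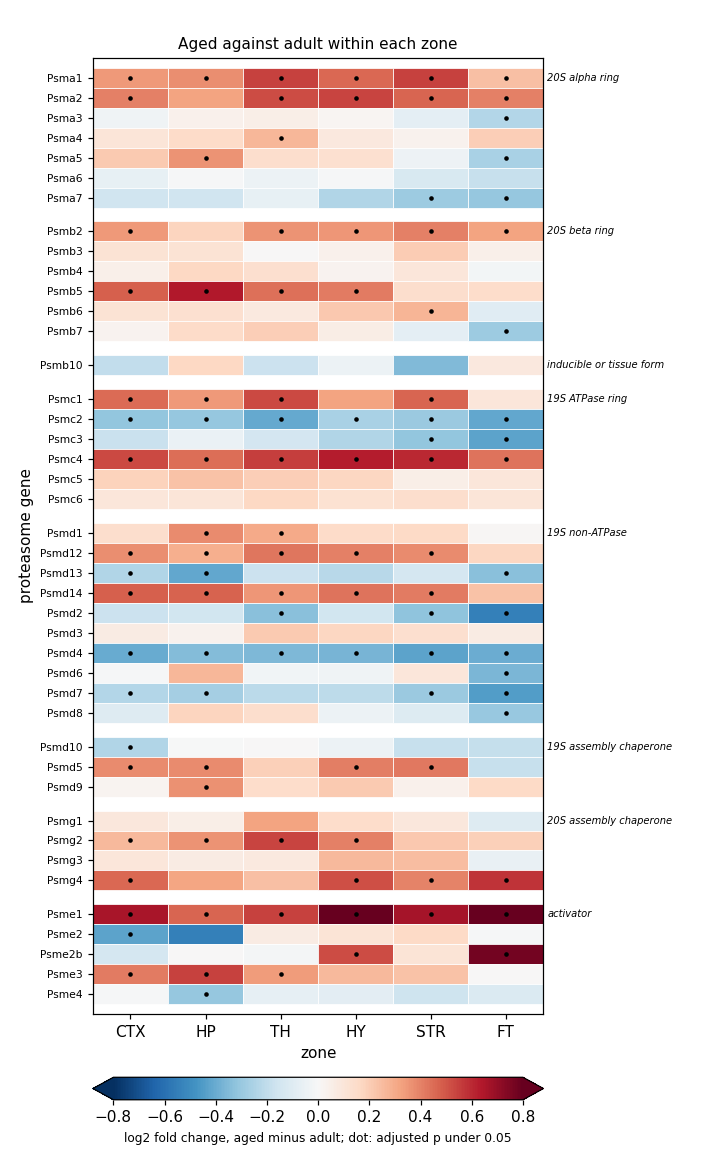
Colour gives the log2 fold change of aged vs. adult within each zone (x axis) for 42 proteasome genes (y axis), clipped at 0.8 in either direction, and dots mark adjusted p under 0.05. Psme1 and Psmc4 are red and Psmd4 and Psmc2 blue in all 6 zones, and 24 genes have their lowest value in the FT.

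The deposited Moran's I scores, which rise when neighbouring spots hold like levels, were low for most proteasome genes. The median over the 42 genes was below the median of 11338 genes in each of the 6 sections, from 0.0152 to 0.0570 against 0.0183 to 0.0616. Psme1 had the highest median rank, above 73.8% of all genes, followed by Psmd12 (65.7%) and Psmb7 (62.8%), and Psmg3 the lowest (10.0%).

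Other genes of the pathway, 27 of a list of 30 in the files, had 25 that passed the filter. At P21 2 were higher and 6 lower, where 13.3% and 17.1% of all genes were. In the aged sections 5 were higher and 9 lower, where 17.3% and 37.3% of all genes were. Nfe2l1, the transcription factor of subunit genes, had 243 and 269 CPM at P21, 310 and 340 CPM in adults and 324 and 349 CPM in the aged sections. It was lower at P21 (log2 fold change -0.35, adjusted p = 0.0053, a call lost without P21 section 1 or adult section 2) and not called in the aged sections (0.05, adjusted p = 0.587). Past a fold of 1.5 in the aged sections were Akirin2, which is known to carry proteasomes into the nucleus (1.04), the shuttle factor Ubqln4 (0.92), the inducible chymotrypsin-like subunit Psmb8 (0.73) and Psmf1, an inhibitor of the core (-0.62). Akirin2 had 247 and 224 CPM in the aged sections against 113 and 117 CPM in adults. Psmb8 had 11.2 and 11.2 CPM against 6.57 and 6.89 CPM. In the FT 17 of 25 pathway genes were lower, led by the proteasome deubiquitinase Usp14 (-0.64), and 3 higher, led by Nfe2l2 (1.5) and Psmb8 (1.28). Of all genes, 43.9% were lower there and 28.9% higher.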

How the data were processed

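Counts of UMIs per gene and spot were deposited for 6 sections, 1 matrix each. The authors aligned probe reads to mm10 with Space Ranger (the file headers give 2.0.0 for both younger ages and 3.1.1 for aged mice, and the submitters' processing notes 2.1.0, with Seurat 5.1.0). Tables of Moran's I, a score of spatial autocorrelation per gene, were deposited too and used only as a description. Spots with under 500 UMIs or under 250 genes were left out (12 spots, 20336 kept). Spots were clustered without the proteasome and pathway genes, zones were named from markers, and counts were summed per section, per section and zone (36 sums) and per section and part of the hippocampus (24 sums). Each table was fitted over all genes that passed edgeR's filter and were found in 10% of spots, with edgeR 4.0.16 in R 4.3.3 (TMM, quasi-likelihood test) and Benjamini-Hochberg adjustment over all genes, called at 0.05. Values with 1 section a group left out assume that the lone section varies like the others. DESeq2 1.42.0, other scalings, thinning to equal depth and leaving out each section were alternatives. Tested on simulated data, the fit of P21 vs. adult over whole sections (11153 genes) recovered 39.6% of genes changed 1.25-fold, 87.8% at 1.5-fold and 100% at 2-fold, while the fit within the STR (10990 genes) recovered 6.12%, 38.8% and 85.1%. The simulation gave every gene the same dispersion between sections, which real genes do not share, so recovery of a given gene may differ. It also changed far fewer genes than were called in the data, and the adjusted p depends on that number. Members, lists and tests were chosen with earlier results of these data known. Genes were named by a rule: the 3 largest rises and falls by age, calls past a fold of 1.5 in a zone, catalytic and activator genes, the 3 highest and lowest in the FT and the 3 smallest p of the zone-by-age terms; all other genes were named after their values were seen. Total UMIs per section set the counting precision. With 2 sections an age, the p-values by age rest on a spread between sections that was estimated over all 6 of them.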

Additional observations from a re-analysis of the deposited data

Results flagged for a closer look

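The aged effect differed between zones for 24 of the 42 proteasome genes in edgeR's test of the zone-by-age terms, which is a test of the difference itself. This share of 57.1% is near the 52.3% of all genes, and the count fell to 7 after thinning to equal depth, 9 without adult section 1 and 10 without adult section 2. Of the called genes that were named by rule, the adjusted p was 5.5e-06 for Psmb7, 2.21e-05 for Psmd5, 6.12e-05 for Psmd8, 0.000303 for Psme3 and 0.000713 for Psmb5. It was 0.00243 for Psmb6, 0.0205 for Psme2b, 0.0302 for Psmd14, 0.0427 for Psme1 and 0.044 for Psme2. For Psmb6 the log2 fold change of aged vs. adult ran from -0.10 in the FT to 0.27 in the STR, for Psme2 from -0.55 in the HP to 0.16 in the STR, and for Psme1 from 0.46 in the HP to 1.11 in the FT. As slide version, probe design and age cannot be told apart, neither can a zone's response to them.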

How the results depend on the processing

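The genes called over whole sections in the main fit gave 342 values under an alternative. Of these, 296 kept their direction and their side of the threshold, 46 kept the direction and lost the call, and none reversed. Genes without a call in the main fit were not in this count, so calls gained under an alternative do not show in it. The counts below are of proteasome genes, and the shares of all genes under each alternative are not given here. At P21, over whole sections, the 1 higher gene became 2 with plain CPM, 3 with DESeq2, 3 without the aged sections and 0 past a fold of 1.5 (0 to 3 when a section was left out), and the 5 lower genes 8 without the aged sections and 0 past the fold (1 to 10). Summed over 6 zones, the 4 higher P21 calls became 1 with plain CPM, 2 with DESeq2, 2 without spots at zone borders, 2 with 20 components, 9 without the aged sections and 0 past the fold (1 to 9), and the 11 lower calls 25 without the aged sections and 2 past the fold (1 to 27). The 12 higher and 10 lower genes of aged sections became 1 and 0 past the fold and, for the lower ones, 6 with plain CPM (8 to 13 and 8 to 10). The 69 higher and 34 lower aged calls in zones became 8 and 0 past the fold (34 to 79 and 13 to 37). Between zones, the 68 higher and 62 lower calls became 36 and 31 after thinning (51 to 65 and 44 to 57), and the 35 lower genes of the FT 14 after thinning and 22 without the aged sections (21 to 35). Zone-by-age terms at P21 gave 1 gene with RLE size factors, 1 with plain CPM, 1 with 20 components and 2 without the aged sections (0 to 3), and the 24 aged ones became 7 after thinning (9 to 18). In the hippocampal layers the 31 higher genes became 14 after thinning and 16 without the aged sections (23 to 29), and the 2 lower ones 4, 1 and 1 with plain CPM, thinning and without the aged sections (1 to 3). The median log2 change of aged sections was 0.12 with plain CPM (-0.03 to 0.03), and that of P21 ranged from -0.07 to -0.01. The cause was not tested, except that thinning and leaving out sections leave fewer counts or sections. Replicate numbers do not pair the sections: deviations of same-numbered sections correlated at 0.14 for P21 and adult, -0.44 for adult and aged and -0.14 for P21 and aged. With the replicate number as a block, 1 gene was higher and 6 lower at P21, 12 and 8 in aged sections, and in zones 3 and 9 at P21 and 67 and 31 in aged sections.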
